A study of Sus scrofa with 12 samples.

Results

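Expression of 10 genes that are commonly read in amnion and trophoblast, GABRP, PSCA, VTCN1, TFAP2A, TFAP2C, GATA2, GATA3, HAND1, ISL1 and CDX2, was followed through the endothelial induction of porcine iPS cells. The genes were found by their pig symbol among the 19681 Ensembl genes of the expression tables, and all 10 were found. GABRP and PSCA were chosen by their FPKM, which was seen to peak at day 4, so their levels are described with no test. The other 8 genes were added by name and not by a threshold on these values, but with earlier results of these data known.

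RNA sequencing of 12 libraries was analysed, with 3 biological replicates (A, B and C) in each of 4 groups. IEC2, IEC4 and IEC12 are porcine iPS cells after 2, 4 and 12 days of induction, and AOC is a porcine endothelial cell line that was not induced. All IEC cells received the GSK3 inhibitor CHIR99021 until day 2. The cells of IEC4 then received BMP4, FGF2 and VEGF until day 4, and the cells of IEC12 went on from there in an endothelial growth medium with VEGF and were not sorted. Day and medium therefore change together and cannot be told apart. The iPS cells and the sorted cells of the study are not analysed here. Values are FPKM (fragments per kilobase of transcript and scaled to the fragments of the library), which allow levels of different genes to be compared. An FPKM table does not give the number of fragments behind a value, so that no interval from counts is given and a gene at 0 is only said to be listed at 0.

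The amnion is the thin epithelium that encloses the embryo, and the trophoblast is the outer epithelium that forms the fetal part of the placenta. In pluripotent stem cells, BMP4 activates receptors that phosphorylate SMAD proteins, the ID genes are direct targets of this signal, and GATA2, GATA3, TFAP2A and TFAP2C are among the transcription factors that rise when such cells take on an amnion or trophoblast fate. Several of these factors also work elsewhere: GATA2 in endothelium and blood, ISL1 and HAND1 in the heart and lateral mesoderm, TFAP2A in surface ectoderm and neural crest.

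The labels were checked against marker genes first. The 12 endothelial markers found of 15 listed summed to 496 to 594 FPKM in AOC, against 0.289 to 0.361 in IEC12, 1.63 to 2.77 in IEC4 and 3.31 to 5.58 in IEC2. CDH5 (VE-cadherin) was listed at 0 in all 9 IEC libraries, and PECAM1 (CD31) did not exceed 0.106 in IEC12. These defining markers were thus at or near 0 in the unsorted IEC12 libraries, whose label names them induced endothelial cells, and the groups are called by their day here. Replicates correlated across genes at Pearson r of 0.967 to 0.992 and none were identical. Mitochondrial genes took 7.77 to 15.01% of the summed FPKM in IEC12, with the highest share in replicate A, and less in IEC4 (4.28 to 7.1%) and IEC2 (1.95 to 2.19%).

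At day 4 the listed genes fell into 3 patterns. GABRP, PSCA, VTCN1 and HAND1 were higher in every IEC4 library than in each of the other 9 libraries. GATA2 and GATA3 were near 0 at day 2 and present at day 4, and GATA3 was higher again at day 12, whereas the step of GATA2 from day 4 to day 12 was not called. TFAP2A and ISL1 were already present at day 2 and were lower at day 4. CDX2 was listed at 0 in all 12 libraries and TFAP2C did not exceed 0.0849 FPKM. The summed FPKM of the list was 9.99 to 10.8 in IEC2, 173 to 318 in IEC4, 17.3 to 44.8 in IEC12 and 2.61 to 3.3 in AOC. Most of the day 4 sum came from GABRP and PSCA. Both were chosen for their day 4 peak, so the day 4 maximum of this sum follows from that choice. Of the other genes, HAND1 and VTCN1 had a higher mean in IEC4 than in IEC12 (7.65 against 0.605 and 2.22 against 0.209). GATA3, ISL1, GATA2 and TFAP2A had a higher mean in IEC12 (11.7, 5.09, 4.27 and 1.55) than in IEC4 (1.895, 0.592, 2.08 and 1.10). For the first pattern, 1518 (13.7%) of the 11053 genes that reached 1 FPKM in 3 or more libraries also had all 3 IEC4 libraries above all 9 others, or 856 (7.74%) under median-of-ratios scaling.

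**Figure D1:**
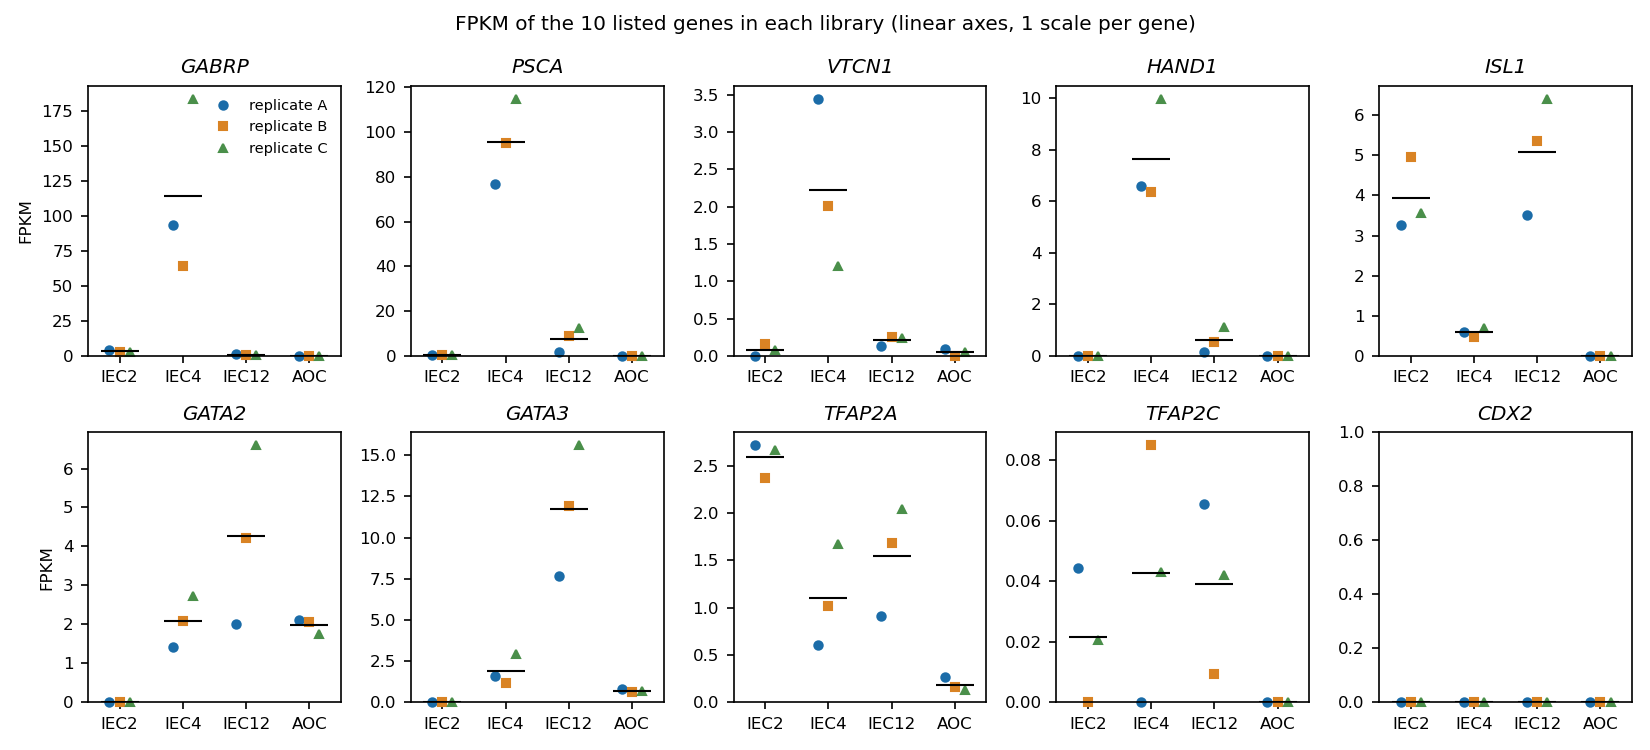
FPKM (vertical axis, linear, its own scale in each panel) of each listed gene in the 3 libraries of IEC2, IEC4, IEC12 and AOC. Points are libraries, with a shape for each replicate letter, and bars are group means; GABRP lies between 64.6 and 184 in IEC4 and at or below 4.38 in all other libraries, while CDX2 is listed at 0 throughout.

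Among the surface proteins, GABRP (ENSSSCG00000021902, chr16:53205616-53228765 of Sscrofa11.1) had the highest mean of the list in IEC4. This order rests on replicate C, since without it the IEC4 means were 79.2 FPKM for GABRP and 86.0 for PSCA. GABRP encodes the pi subunit of the GABA-A receptor, a chloride channel subunit known from epithelia of reproductive tissues. Its FPKM was 4.38, 2.67 and 2.997 in IEC2 A, B and C, 93.9, 64.6 and 184 in IEC4, and 1.05, 0.584 and 0.332 in IEC12, and it was listed at 0 in all 3 AOC libraries. The 3 groups of IEC libraries did not overlap, with the order IEC4, IEC2, IEC12. The mean was 114 ± 62.1 FPKM in IEC4 (SD, n = 3) and 3.35 ± 0.907 in IEC2 (SD, n = 3), a ratio of 34.1, or 23.7 without IEC4 replicate C. The IEC4 mean was 174 times that of IEC12, or 121 times without replicate C. In IEC4 the gene stood above 95.1 to 98.6% of all genes of its library.

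PSCA (ENSSSCG00000035372, chr4:1479872-1484245) encodes prostate stem cell antigen, a small GPI-anchored protein of the LY6 family that is known from several epithelia. IEC2 held 0.385, 0.545 and 0.593 FPKM, IEC4 76.8, 95.1 and 115, and IEC12 1.83, 8.95 and 12.5. In AOC it was listed at 0 in replicates A and C and at 0.0921 in B. The IEC groups did not overlap here either, but the order differed from that of GABRP, with IEC12 above IEC2. The mean of 95.6 ± 19 FPKM in IEC4 (SD, n = 3) was 188 times that of IEC2 and 12.3 times that of IEC12. Within IEC12, replicate A held 0.171 times the mean of B and C, and it is the library with the highest mitochondrial share. It was also the lowest of the 3 IEC12 libraries for 7 of the 9 listed genes above 0, and the highest for GABRP and TFAP2C. The part of the mitochondrial share in these values was not tested.

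VTCN1 (ENSSSCG00000006731, chr4:103390547-103584847) encodes B7-H4, an inhibitory ligand of T cells that is made by trophoblast and amnion. It was 0, 0.156 and 0.0794 FPKM in IEC2, 3.44, 2.01 and 1.21 in IEC4, 0.127, 0.257 and 0.244 in IEC12, and 0.0946, 0 and 0.0459 in AOC. All IEC4 libraries lay above all others, and IEC2, IEC12 and AOC lay below 0.26 FPKM. It differs from GABRP and PSCA in its replicates, being highest in IEC4 A and lowest in IEC4 C.

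Both neighbours of GABRP on chromosome 16 were compared as a description. RANBP17 was 10.8 to 13.2 FPKM in IEC2 and 6.19 to 7.31 in IEC4, and KCNIP1 was 0.143 to 0.303 FPKM in IEC4, where all 3 libraries lay above the other 9 (at most 0.139). PSCA lies inside the interval of JRK (chr4:1476298-1493597), whose FPKM was 0.0958 to 0.119 in IEC4, while ARC, 2 genes away, was listed at 0 in all 3 IEC4 libraries. KCNIP1 thus had its highest libraries in IEC4 as GABRP did, at levels below 0.31 FPKM, and the other 3 genes did not. Whether the authors' counting used strand is not given in the sources used here.

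The transcription factor HAND1 (ENSSSCG00000031080, chr16:68679977-68683346), a basic helix-loop-helix factor of trophoblast, amnion and lateral mesoderm, was listed at 0 in all libraries of IEC2 and AOC. It was 6.59, 6.39 and 9.99 FPKM in IEC4 and 0.147, 0.56 and 1.11 in IEC12. All IEC4 libraries lay at least 5 FPKM above the highest library of any other group. On the log2(FPKM + 1) scale, which understates changes of low genes, limma gave 3.09 ± 0.25 (SE) for IEC4 against IEC2 with an adjusted p of 2.4e-05, and -2.45 ± 0.25 for IEC12 against IEC4 with an adjusted p of 0.00011. VTCN1 changed by 1.52 ± 0.24 (adjusted p = 0.001) and -1.36 ± 0.24 (adjusted p = 0.0017) in the same comparisons. Genes were tested if at least 3 libraries of the fit reached 1 FPKM. VTCN1 passed only through its IEC4 libraries, and HAND1 through these and IEC12 C, so that both had to differ and their p-values stand as description.

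GATA2 (ENSSSCG00000011618, chr13:71981139-71997626) and GATA3 (ENSSSCG00000011125, chr10:63367684-63397977) are zinc finger factors of trophoblast and amnion, and GATA2 is in addition a factor of endothelium and blood. GATA2 was 0, 0 and 0.0176 FPKM in IEC2, 1.42, 2.09 and 2.74 in IEC4, 2.00, 4.21 and 6.59 in IEC12, and 2.11, 2.05 and 1.76 in AOC. All IEC4 libraries were above all IEC2 libraries, whereas IEC4 overlapped with both IEC12 and AOC. The increase from IEC2 to IEC4 was 1.59 ± 0.31 on the log2(FPKM + 1) scale (SE, limma adjusted p = 0.0034). From IEC4 to IEC12 it was 0.70 ± 0.31 with an adjusted p of 0.094, and this was called at 0.84 (adjusted p = 0.024) under median-of-ratios scaling and at 1.05 (adjusted p = 0.0099) without IEC12 replicate A.

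GATA3 rose at both steps. It was 0.0283, 0.0258 and 0.0349 FPKM in IEC2, 1.61, 1.16 and 2.92 in IEC4, 7.66, 11.9 and 15.6 in IEC12, and 0.822, 0.631 and 0.666 in AOC. None of these groups overlapped, with the order IEC12, IEC4, AOC, IEC2. The change was 1.45 ± 0.28 from IEC2 to IEC4 (adjusted p = 0.0033) and 2.13 ± 0.28 from IEC4 to IEC12 (adjusted p = 0.00041). Unlike GABRP and PSCA, GATA3 was thus highest at day 12, where its mean was 6.18 times that of IEC4 and 16.6 times that of AOC.

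TFAP2A and TFAP2C are AP-2 factors of surface ectoderm, amnion and trophoblast. TFAP2A (ENSSSCG00000001036, chr7:7221654-7244626) was 2.72, 2.38 and 2.67 FPKM in IEC2, 0.611, 1.02 and 1.67 in IEC4, 0.916, 1.69 and 2.04 in IEC12, and 0.264, 0.167 and 0.136 in AOC. IEC2 lay above all other libraries, AOC below all others, and IEC4 and IEC12 overlapped. The decrease from IEC2 to IEC4 was -0.80 ± 0.24 (SE, limma adjusted p = 0.025). This call rests on the set of libraries and genes, since the adjusted p was 0.066, 0.051, 0.063, 0.087 and 0.068 without IEC2 A, IEC2 B, IEC2 C, IEC4 A and IEC4 B, and 0.052 with no filter on low genes. TFAP2C (ENSSSCG00000007499, chr17:57164400-57174923) was 0 to 0.0849 FPKM in IEC4, 0 to 0.0444 in IEC2 and 0.00947 to 0.0655 in IEC12, and was listed at 0 in AOC. Its groups overlapped and it passed no filter.

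ISL1 (ENSSSCG00000016883, chr16:30962994-30974201), a LIM homeodomain factor of amnion, heart progenitors and motor neurons, moved against the day 4 genes. Its FPKM was 3.27, 4.95 and 3.57 in IEC2, 0.598, 0.48 and 0.698 in IEC4 and 3.51, 5.35 and 6.41 in IEC12, and it was listed at 0 in AOC. All IEC4 libraries were below all 6 other IEC libraries, as for 769 of 10542 genes (7.29%), or 1375 (13.0%) under median-of-ratios scaling, while IEC2 and IEC12 overlapped. The change was -1.62 ± 0.22 from IEC2 to IEC4 (adjusted p = 0.00051) and 1.91 ± 0.22 from IEC4 to IEC12 (adjusted p = 0.00023). CDX2 (ENSSSCG00000009317, chr11:5339727-5346081), a homeodomain factor of trophoblast and gut, had a value of 0 in every library, which can also be a failed estimate.

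**Figure D2:**
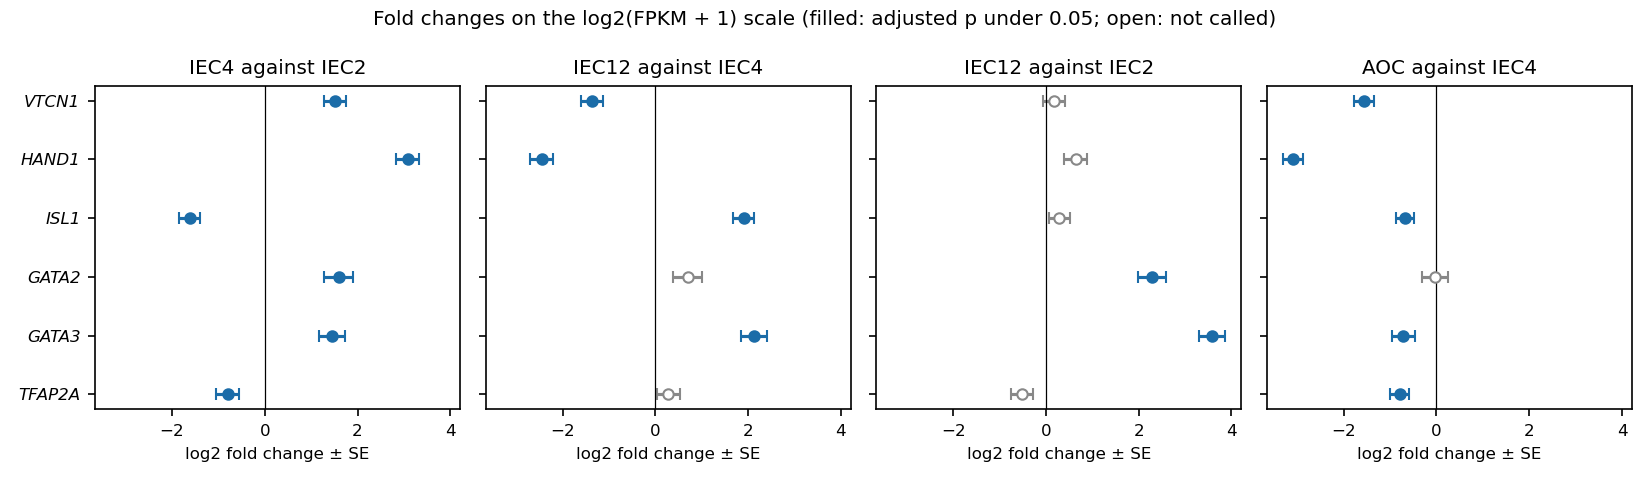
Log2 fold changes (horizontal axis, on the log2(FPKM + 1) scale) of the 6 listed genes tested, with bars of 1 SE from limma, in 4 comparisons. Filled points have an adjusted p under 0.05; HAND1, VTCN1, GATA2 and GATA3 lie to the right of 0 and ISL1 and TFAP2A to the left for IEC4 against IEC2.

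In the comparison of IEC4 with IEC2, GATA2 and GATA3 were higher and TFAP2A and ISL1 lower of the 4 listed genes that passed the filter without the IEC4 libraries, where 24.8% and 12.5% of all 10542 genes tested were called higher and lower at an adjusted p under 0.05. VTCN1 and HAND1 are not read against this background. Under median-of-ratios scaling the split over all genes moved from 2614 higher and 1318 lower to 1856 and 1958, and the 6 listed genes kept their direction and their call under this scaling and at equal FPKM totals. By the limits the study used elsewhere, p and adjusted p under 0.001 with a log2 fold change over 3, 1.18% of all genes passed in either direction and none of GATA2, GATA3, TFAP2A and ISL1 did, while HAND1 was past them as a description. From IEC4 to IEC12, GATA3 and ISL1 rose, and VTCN1 and HAND1 were called lower as the filter fixed, against a background of 17.3% higher and 26.9% lower. The split of 1825 higher and 2835 lower genes became 2516 and 2287 under median-of-ratios scaling and 1171 and 3346 at equal FPKM totals, where these 4 calls kept their direction. TFAP2A was 0.28 ± 0.24 higher in IEC12, with an adjusted p of 0.36. None of the 6 passed the limits of the study here (background 0.939%).

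Between IEC2 and IEC12, GATA2 (2.29 ± 0.31, adjusted p = 0.00035) and GATA3 (3.58 ± 0.28, adjusted p = 1.4e-05) were called higher, with 24.2% of all genes higher and 19.3% lower (2556 and 2036 genes, or 1582 and 2713 at equal FPKM totals). GATA3 also passed the limits of the study (background 1.22%). ISL1 was 0.29 ± 0.22 higher (adjusted p = 0.32) and VTCN1 0.17 ± 0.24 higher (adjusted p = 0.60). HAND1 was 0.64 ± 0.25 higher with an adjusted p of 0.062, which became 0.018 without IEC12 replicate A and 0.0054 with a pseudocount of 0.1. It was called with a replicate block too. TFAP2A was -0.52 ± 0.24, with an adjusted p of 0.11, and 0.046 when libraries were scaled to equal FPKM totals.

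Against AOC, the endothelial line, IEC4 was higher for HAND1, VTCN1, TFAP2A, GATA3 and ISL1, of which HAND1 and VTCN1 passed the filter through IEC4. The differences of AOC against IEC4 were -3.09 ± 0.21, -1.56 ± 0.21, -0.79 ± 0.21, -0.72 ± 0.25 and -0.67 ± 0.19 in that order, with limma adjusted p of 2e-07, 3.6e-05, 0.0051, 0.023 and 0.009. Of all 11053 genes tested, 47.0% were lower in AOC and 22.1% higher (5198 and 2441 genes, or 3639 and 3594 under median-of-ratios scaling). The limits of the study were passed by 5.17% of all genes here and by none of TFAP2A, GATA2, GATA3 and ISL1. The GATA3 call was lost without IEC4 C (adjusted p = 0.097), AOC B (0.063) or AOC C (0.06) and under median-of-ratios scaling (0.084). GATA2 differed by -0.03 ± 0.28 (adjusted p = 0.93). The 11 endothelial genes tested were called higher in AOC, but 10 of them reached the filter only with the AOC libraries and had to differ. These comparisons share the IEC4 libraries with those above.

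The 3 IEC4 libraries were not alike. Replicate C was the highest of the 3 for 7 of the 9 listed genes above 0, with VTCN1 and TFAP2C as the exceptions, and GABRP in C was 2.32 times the mean of A and B. Marker genes of simple epithelium moved with it: the 19 genes found of 20 listed summed to 591, 741 and 1698 FPKM in IEC4 A, B and C, against 121 to 156 in IEC2, 47.2 to 95.7 in IEC12 and 31.5 to 36.1 in AOC. Mitochondrial genes took 4.28, 5.11 and 7.1% of these 3 libraries. The part of either in the values of the listed genes was not tested. In these bulk libraries, more cells of a kind and more RNA per cell cannot be told apart.

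The summed level of the simple epithelium list was highest at day 4. Of 14 genes tested, 13 were called higher in IEC4 than in IEC2 and none lower, also without IEC4 C, and 14 were called lower in IEC12 than in IEC4. However, 10 of the 14 reached the filter only with the IEC4 libraries and had to differ, KRT18, CLDN4, CDH1, SPINT1 and SPINT2 among them, so that these counts stand as description. Of the 4 others, 3 were higher and none lower in IEC4 than in IEC2 (24.8% and 12.5% of all genes), and 4 were lower in IEC12 than in IEC4 (26.9% of all genes). KRT8, the keratin of simple epithelia, was 12.9 to 20.3 FPKM in IEC2, 300.4, 435 and 748 in IEC4, 3.64 to 14.9 in IEC12, and at most 0.0106 in AOC. Its partner KRT18 was 3.71 ± 0.37 higher in IEC4 than in IEC2 on the log2(FPKM + 1) scale. The tight junction gene CLDN4 was 7.55, 7.34 and 61.1 FPKM in IEC4 and at most 0.0562 in the other IEC libraries. CLDN6, a claudin of embryonic epithelia, was 86.9 to 130 FPKM in IEC2 already and 202, 216 and 612 in IEC4 (1.53 ± 0.41, adjusted p = 0.016, and 0.055 without IEC2 B). ESRP1, a splicing factor of epithelia, was the gene not called, at -0.32 ± 0.28 with an adjusted p of 0.39; it is named after its values were seen.

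Other trophoblast genes were read next. Of the 20 genes found of 22 listed, 12 were tested, and 7 were higher and 1 lower in IEC4 than in IEC2, or 6 and 2 without IEC4 C (24.8% and 12.5% of all genes). KRT7, ELF3 and HSD17B1 reached the filter only with the IEC4 libraries and had to differ. Of the 9 others, 4 were higher and 1, LIFR, lower. LIFR reached 1 FPKM in 3 IEC2 and 2 IEC4 libraries and so passed only with those of IEC2, and its value stands as description. The higher genes were KRT7, PPARG, DAB2, ELF3, ITGA6, ARID3A and HSD17B1, of which ELF3 is in the epithelial list too, and LIFR was lower. The ITGA6 call (1.38 ± 0.45, adjusted p = 0.036) was lost without each of IEC2 A, IEC2 B, IEC2 C, IEC4 B and IEC4 C, at adjusted p of 0.051 to 0.12, and LIFR, at -0.73 ± 0.21, was not called without each of IEC2 B, IEC2 C, IEC4 A and IEC4 B. KRT7, a keratin of trophoblast and amnion, was 0.197 to 0.527 FPKM in IEC2, 17.1, 18.2 and 62.5 in IEC4 and at most 0.149 in IEC12 (4.37 ± 0.41 from IEC2 to IEC4). PPARG, a nuclear receptor needed by the placenta, was 1.46 to 2.15 FPKM in IEC2, 16.1, 9.93 and 26.3 in IEC4 and 5.47 to 6.89 in IEC12. DAB2, an endocytic adaptor, changed by 2.37 ± 0.25 (adjusted p = 9.3e-05). SATB1 and TEAD1, the other abundant genes of the list, changed by 0.15 ± 0.20 and 0.21 ± 0.24 and were not called.

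Several genes of the trophoblast list were at or near 0. EOMES, which is in the mesoderm list too, was listed at 0 in all libraries, which can also be a failed estimate. ELF5 reached 0.312 FPKM, GCM1 0.244 and TP63, a factor of squamous epithelium too, 0.585, each at its highest in IEC4 C, and these 4 genes were chosen after their values were seen. From IEC4 to IEC12, 6 of the 12 tested trophoblast genes were lower and none higher (26.9% and 17.3% of all genes), but KRT7, ELF3 and HSD17B1 are 3 of the 6 and had to differ, and 3 of the 9 others were lower. Over the 12 genes the count was 9 lower at equal FPKM totals and 6 lower and 1 higher under median-of-ratios scaling. Of the 6 lower genes, TEAD4 was not called without IEC4 C (adjusted p = 0.12), IEC12 A (0.12) or IEC12 B (0.069).

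The other amnion genes that were tested gave no single direction. Of the 15 genes found of 16 listed, 7 were tested, and KRT7, BMP4 and HEY1 were higher and MEIS1 lower in IEC4 than in IEC2, beside 24.8% and 12.5% of all genes. KRT7 had to differ, as given above. The HEY1 call (0.92 ± 0.29, adjusted p = 0.033) was lost without IEC2 A (0.10), IEC2 C (0.084), IEC4 A (0.069) or IEC4 C (0.097), under median-of-ratios scaling (0.052) and with no filter (0.065). BMP4 itself was 6.9 to 8.53 FPKM in IEC2, 16.7, 23.9 and 48.3 in IEC4, 4.66 to 5.4 in IEC12 and 38.6 to 44.6 in AOC (1.70 ± 0.31 from IEC2 to IEC4, adjusted p = 0.0025). DLX5, a homeodomain factor, was 4.45 to 7.94 FPKM in IEC4 and 15.3 to 31.1 in IEC12, and BAMBI, a decoy receptor of BMP and TGF-β, was 2.78 to 5.31 in IEC4 and 27.6 to 54.3 in IEC12. Both were called for IEC12 against IEC4 (1.87 ± 0.28, adjusted p = 0.00077, and 3.10 ± 0.27, adjusted p = 4.8e-05) and neither for IEC4 against IEC2. KRT7 is in the trophoblast list too. Of the genes not tested, MSX2 was listed at 0 in IEC2, at 0.776, 2.01 and 4.43 FPKM in IEC4, and at 0.513 to 0.844 in IEC12. WNT6 was listed at 0 in IEC2, at 0.514, 2.05 and 4.13 in IEC4, and at most at 0.0365 in IEC12. TBX3, TBX20, SEMA3C and POSTN had their highest mean in IEC4 too, at most 1.47, and TFAP2B and MSX1 in IEC12 (0.242 and 0.0869). These untested genes are named after their values were seen.

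Genes of the list made for the BMP response were mostly higher at day 4, and their calls from day 4 to day 12 went both ways. Whether each gene of the list responds to BMP in these cells was not tested. Of 10 genes tested of 18, 7 were higher and none lower in IEC4 than in IEC2, beside 24.8% and 12.5% of all genes; CHRDL1 reached the filter only with the IEC4 libraries. ID3, an inhibitor of basic helix-loop-helix factors, was 34.8, 15.7 and 24.9 FPKM in IEC2, 559, 512 and 753 in IEC4 and 2716, 2678 and 2577 in IEC12. In AOC, which was not induced, it was 643, 758 and 613 FPKM and overlapped with IEC4. In the IEC groups ID3 rose by 4.59 ± 0.25 to day 4 (adjusted p = 3.3e-06) and by another 2.15 ± 0.25 to day 12 (adjusted p = 0.00022). ID2 was below 1 FPKM in every IEC2 library, at 18.8 to 39.5 in IEC4 and at 38.4 to 41.8 in IEC12, where the second step was not called (0.68 ± 0.26, adjusted p = 0.056) but was without IEC4 C (0.0019) and under median-of-ratios scaling (0.013). SMAD9, a signal transducer of BMP, was 7.24 to 8.85 FPKM in IEC4 and 7.34 to 11.6 in IEC12, with no difference called between them (0.17 ± 0.20, adjusted p = 0.52). ID1 did not exceed 0.0142 FPKM in any library, AOC included, which can also be a failed estimate, and is named after its value was seen. From IEC4 to IEC12, 3 genes of the list were higher and 3 lower (17.3% and 26.9% of all genes), or 4 and 2 under median-of-ratios scaling and 3 and 4 at equal totals. Without IEC4 C the counts were 5 and 3, since ID2 and SMAD6 (limma adjusted p = 0.019) were then called higher too. With all libraries the higher genes were ID3, BAMBI and NOG, of which NOG, an antagonist of BMP, reached the filter only with the IEC12 libraries. The lower genes were TGFB1I1, CHRDL1 and VEZF1, of which CHRDL1 reached the filter only with the IEC4 libraries and had to differ. ID3, ID2, SMAD6 and SMAD9 changed by 2.15, 0.68, 0.44 and 0.17 from IEC4 to IEC12, and of these ID3 was called. TGFB1I1 stood at 48.4 to 61.7 FPKM in IEC4, above its 11.6 to 12.9 of IEC2, and at 2.79 to 12.7 in the IEC12 libraries (-2.88 ± 0.37 from IEC4 to IEC12, adjusted p = 0.00038). CHRDL1, another antagonist of BMP, was 2.08 to 3.36 FPKM in IEC4 and 0.163 to 0.265 in IEC12. VEZF1 differed by -0.44 ± 0.12 (adjusted p = 0.017), and its call was lost without IEC12 B (0.069) and under median-of-ratios scaling (0.29). SMAD6, NOG, TGFB1I1, CHRDL1 and VEZF1 are named for these counts after their values were seen.

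**Figure D3:**
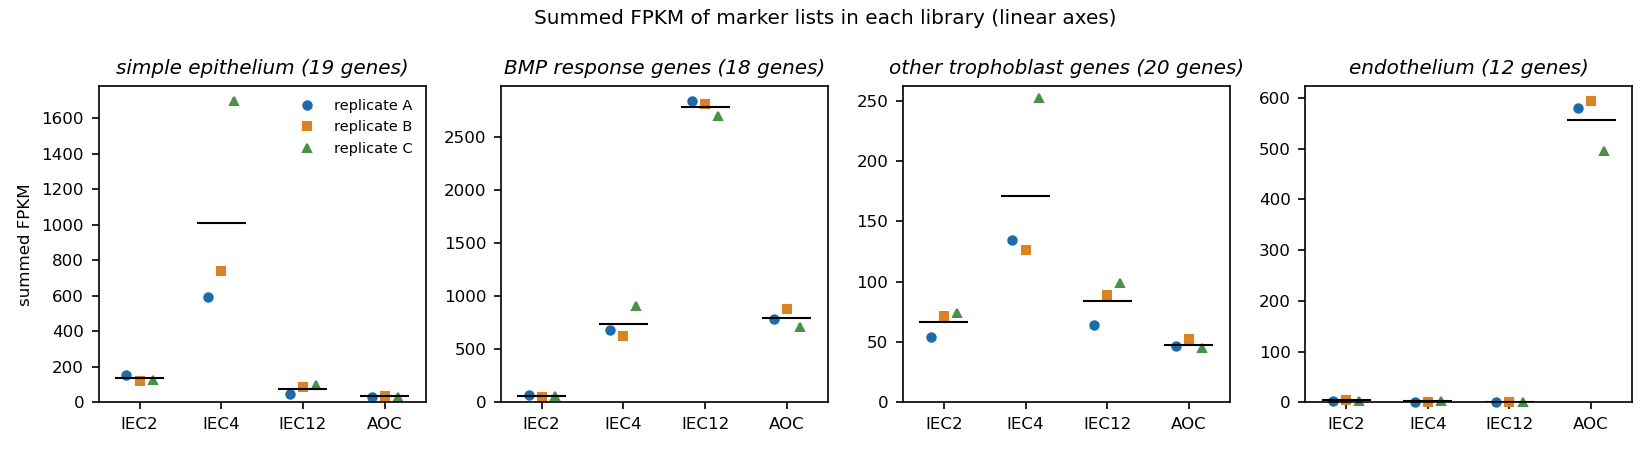
Summed FPKM (vertical axis, linear, its own scale in each panel) of the genes found of 4 marker lists in each library, with points for replicates A, B and C and bars for group means. The simple epithelium sum peaks in IEC4 with 1698 in replicate C, the BMP response sum is highest in IEC12, where ID3 alone holds 2577 to 2716 and the other genes of the list sum to 120 to 138 against 114 to 160 in IEC4, and the endothelial sum is above 6 only in AOC.

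Lists of other tissues were read beside these. Of the surface ectoderm list, 10 of 13 genes were found and 5 tested, and PERP, GRHL3 and KLF5 were higher in IEC4 than in IEC2 (24.8% of all genes). PERP, a desmosome protein, went on from 99.8 to 184 FPKM in IEC4 to 209 to 249 in IEC12 (0.85 ± 0.23, adjusted p = 0.014, and 0.052 to 0.055 without IEC4 A, IEC4 B or IEC12 B). Of the mesoderm list (14 of 15 found, 6 tested), MESP2 was higher and the receptors PDGFRA and KDR were lower in IEC4 than in IEC2, beside 24.8% of all genes higher and 12.5% lower. PDGFRA was 3.62 to 5.13 FPKM in IEC2 and 0.217 to 0.801 in IEC4. Both receptors reached the filter only with the IEC2 libraries, and of the 4 others 1 was higher and none lower. The neural crest factor SNAI2 was the only gene tested of its list and was lower (-1.40 ± 0.19, adjusted p = 0.00048). Of the pluripotency list only 5 of 12 genes were found and 3 tested. Of these, 2 were higher and 1 lower in IEC4 than in IEC2 (24.8% and 12.5% of all genes). LIN28A, an RNA-binding protein, was listed at 0 in IEC2 and was 3.94, 3.01 and 5.86 FPKM in IEC4. KLF17 was 1.7 to 2.56 FPKM in IEC2 and listed at 0 in IEC4. LIN28A passed the filter only through IEC4 and KLF17 only through IEC2, so that both had to differ. DNMT3B, whose place in the test needed neither group, was 1.66 ± 0.23 higher in IEC4 (limma adjusted p = 0.00054). Of the endoderm list (9 of 13 found, 3 tested), APOA1 was 1.22 ± 0.21 higher in IEC4 and passed only through the IEC4 libraries.

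Relatives of the listed genes were then read, which were taken by symbol after the values of the listed genes had been seen. CDX4, the only other CDX factor found, was 0, 0.491 and 0.913 FPKM in IEC2, 24.1, 20.8 and 6.94 in IEC4, 39.3, 44.1 and 44.3 in IEC12 and listed at 0 in AOC. It changed by 3.53 ± 0.40 from IEC2 to IEC4 (limma adjusted p = 0.00016) and by 1.41 ± 0.40 from IEC4 to IEC12 (adjusted p = 0.018), which became 0.053 without IEC12 B and 0.15 with a pseudocount of 0.1. CDX4 thus had all IEC4 and IEC12 libraries above those of IEC2 where CDX2 was listed at 0. It is known as a posterior regulator of HOX genes in mesoderm and neural tube, and in IEC4 it was lowest in replicate C.

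TFAP2D was the AP-2 factor with the highest mean in IEC4 and IEC12, whereas TFAP2A was above it in IEC2 and AOC. It was 0.368, 0.746 and 4.00 FPKM in IEC2, 6.23, 7.88 and 8.81 in IEC4 and 1.75, 2.08 and 4.25 in IEC12, and IEC4 was above all others (1.91 ± 0.45 from IEC2, adjusted p = 0.0084). Its decrease to IEC12 was -1.28 ± 0.45 (adjusted p = 0.041) and was not called without each of IEC4 A, IEC4 B, IEC4 C, IEC12 A and IEC12 B, at adjusted p of 0.067 to 0.11. TFAP2B and TFAP2E stayed under 0.54 FPKM. HAND2, the partner of HAND1 in heart and lateral mesoderm, was 3.42 to 6.52 FPKM in IEC2, 3.42 to 5.14 in IEC4, 2.69 to 6.22 in IEC12 and 33.8 to 45.4 in AOC, so that the IEC groups overlapped and AOC stood above them. GATA6 was 0.579 to 2.02 FPKM in IEC4 and was not called in the 4 comparisons, though it was for IEC12 against IEC4 without IEC4 C, for IEC12 against IEC2 in a fit of only these groups (0.59, adjusted p = 0.039) and for AOC against IEC4 without IEC4 C or under median-of-ratios scaling, and GATA1 and GATA4 stayed under 0.21. ISL2 was 2.14 to 2.34 FPKM in IEC2 and 1.67 to 2.98 in IEC4 (-0.02 ± 0.28, adjusted p = 0.95).

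**Figure D4:**
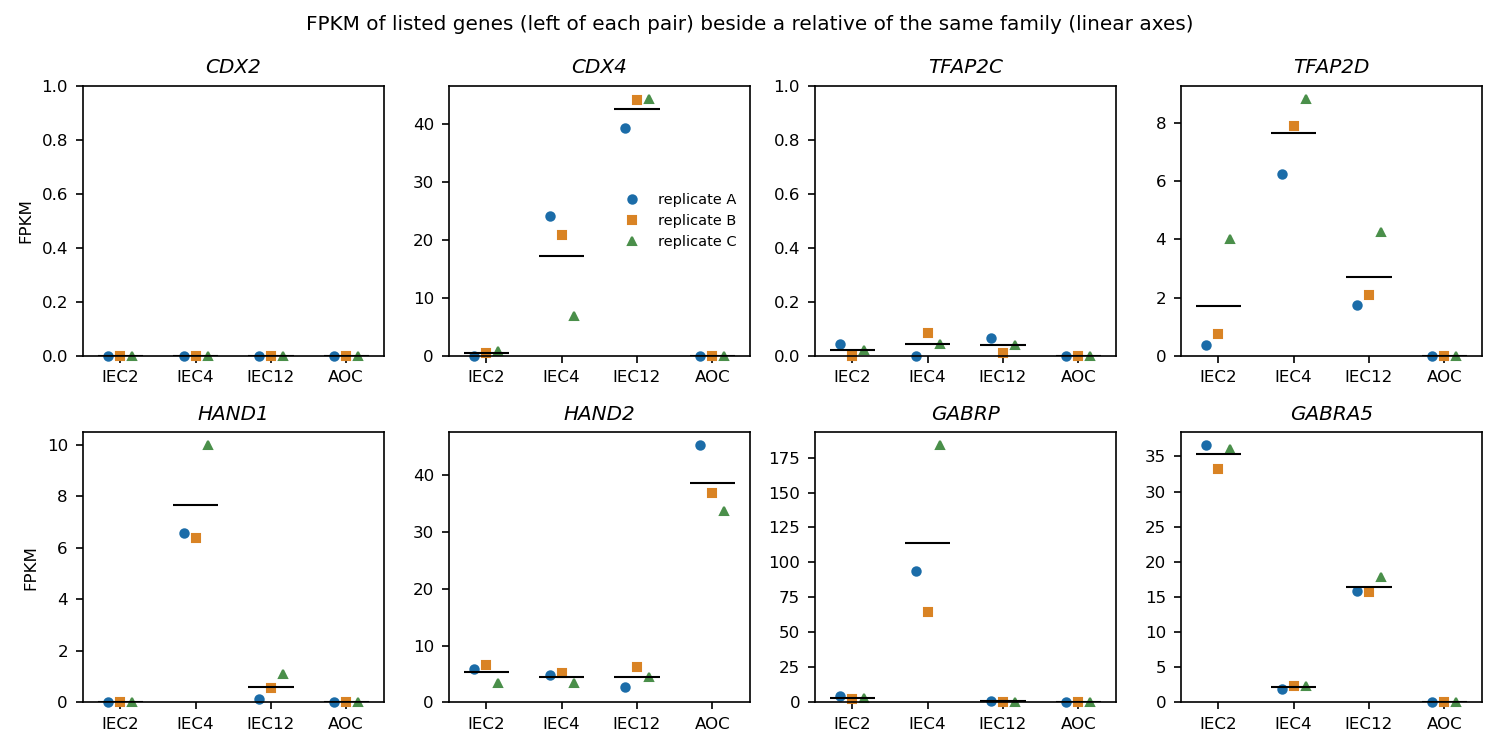
FPKM (vertical axis, linear, its own scale in each panel) of CDX2, TFAP2C, HAND1 and GABRP, each to the left of a relative of the same family. Points are libraries and bars are group means; CDX4 and TFAP2D are present in IEC4 where CDX2 and TFAP2C are below 0.1, HAND2 is highest in AOC, and GABRA5 is lowest at day 4 among the IEC groups.

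Among other GABA-A receptor subunits, GABRA5 was 36.6, 33.2 and 36.1 FPKM in IEC2, 1.94, 2.27 and 2.3 in IEC4 and 15.9, 15.7 and 17.9 in IEC12 (-3.52 ± 0.14 from IEC2 to IEC4, adjusted p = 1.6e-06, and 2.46 ± 0.14 from IEC4 to IEC12, adjusted p = 4.9e-06). GABRA2 was lower in IEC4 than in IEC2 too (-3.04 ± 0.20, adjusted p = 7.7e-06). In IEC4, GABRA5 and GABRA2 were at or below 2.3 FPKM where GABRP was at 64.6 or more.

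Among the 14 other LY6 and LYPD genes, LY6G6C shared the day 4 peak of PSCA. It was 1.25, 0.284 and 0.254 FPKM in IEC2, 11.7, 9.24 and 33.9 in IEC4, at most 0.135 in IEC12 and 0.336 to 0.767 in AOC (3.43 ± 0.42 from IEC2 to IEC4 and -3.93 ± 0.42 from IEC4 to IEC12, as a description, since it passed the filter only with the IEC4 libraries). LYPD1 went the other way, from 16.3 to 26.1 FPKM in IEC2 to 1.18 to 1.58 in IEC4 and 4.82 to 8.13 in IEC12 (-3.21 ± 0.23 from IEC2 to IEC4, adjusted p = 1.2e-05). Of the B7 family of VTCN1, CD276 was 2.09, 4.96 and 6.73 FPKM in IEC2, 12.6, 10.6 and 13.6 in IEC4 and 0.513, 1.37 and 2.89 in IEC12, all IEC4 libraries being above the rest (1.34 ± 0.39 from IEC2, adjusted p = 0.023). This call was lost without IEC2 A (adjusted p = 0.077), IEC4 A (0.063) or IEC4 C (0.066), with no filter (0.054) and with a pseudocount of 0.1 (0.061). CD86 was 1.67 to 2.63 FPKM in IEC4 and 278 to 323 in AOC.

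The genes whose log2(FPKM + 1) followed that of GABRP or PSCA most closely over the 12 libraries were taken from 9158 genes with a symbol. For GABRP they were FAM111A (Pearson r = 0.986), ITPR1 (0.986), CATSPERG (0.985), GPRC5C (0.98) and FLVCR2 (0.98). For PSCA they were OLFM2 (0.989), EFCAB14 (0.987), PPM1N (0.985), INSC (0.983) and SLC11A1 (0.979). Their levels in IEC4 were 14.4 to 19.1 FPKM for FAM111A and 13.4 to 14.6 for EFCAB14, and under 8 for the other 8. Within the list, r was 0.971 between PSCA and HAND1, 0.908 between GABRP and HAND1 and 0.842 between GABRP and PSCA. It was 0.837 between GATA2 and GATA3 and 0.833 between TFAP2A and ISL1. These values describe 12 libraries in 4 groups. GABRP and PSCA were chosen for their peak in the 3 IEC4 libraries, and HAND1 reached the filter only with these libraries. High r among GABRP, PSCA and HAND1 therefore follows in part from this choice, and r was not computed without the IEC4 libraries.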

How the data were processed

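RNA was amplified by Smart-Seq2 and libraries were made with a SMARTER kit, per the labels. The authors processed the reads in Galaxy, and the submitters' processing notes name TopHat2 2.0.12, Bowtie2 2.2.3, Cufflinks 2.2.1 and susScr11. The deposited values are FPKM per gene and library, which do not give the number of fragments. Symbols came from a table of gene names (13998 of 19681 identifiers matched) and coordinates from a RefSeq gene table of Sscrofa11.1. The listed genes and the marker lists were chosen with earlier results of these data known.

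Values were tested with limma 3.58.1 (R 4.3.3, trend = TRUE) on log2(FPKM + 1), over genes that reached 1 FPKM in 3 or more libraries of the fit, with the 9 IEC libraries in one fit and all 12 for AOC. Benjamini-Hochberg adjustment was over all genes tested, two-sided, called under 0.05. GABRP and PSCA were not tested. From each list the up to 4 genes with the highest mean and the up to 4 with the largest called change of IEC4 against IEC2 were eligible to be named, beside all listed genes and the 5 genes most like GABRP and PSCA. Genes outside this rule are marked in the text, and some family members are not reported here. The limma fit was tested on simulated data. Python 3.11.15 with pandas 2.3.3 and matplotlib 3.10.9 was used for tables and figures. Alternatives were another pseudocount, no filter, only the groups compared, a replicate block, other scalings, a variance without trend, the limits of the study, and each replicate left out.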

Additional observations from a re-analysis of the deposited data

How the results depend on the processing

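Over the alternatives, 388 of 416 values of single listed genes kept their direction and side of the threshold or moved by less than the replicate spread. Of the others, 16 changed a call (TFAP2A, GATA2, GATA3 and HAND1, given beside those genes, and for HAND1 also with the block below), 9 are untested values of GABRP and PSCA that moved by more, and 3 concern GATA2. This difference of GATA2 between AOC and IEC4, not called in any setting, changed sign to 0.32 under median-of-ratios scaling and ranged from -0.19 to 0.12 when 1 replicate was left out. The limits of the study left 124 genes instead of 3932 for IEC4 against IEC2, 99 instead of 4660 for IEC12 against IEC4, 129 instead of 4592 for IEC12 against IEC2 and 571 instead of 7639 for AOC against IEC4, by their construction. Leaving out replicates gave 2987 to 3477, 3412 to 4812, 3362 to 4356 and 6919 to 7376 genes. Without IEC4 replicates the ratio of IEC4 to IEC2 was 23.7 to 41.5 for GABRP and 169 to 207 for PSCA, and that of IEC4 to IEC12 121 to 212 and 11.1 to 13.6.

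Median-of-ratios scaling shifted the median log2 fold change of all genes from 0.20 to -0.02 for IEC4 against IEC2, from -0.15 to 0.04 for IEC12 against IEC4 and from -0.45 to -0.05 for AOC against IEC4. Under this scaling 856 instead of 1518 genes had all IEC4 libraries above all others, GABRP, PSCA, VTCN1 and HAND1 still among them, and 1375 instead of 769 had them below the other IEC libraries, ISL1 still among them (added after seeing the data). The cause was not tested.

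Replicate letters are shared by the groups, but no comparison had all 3 letters deviate together. The correlation of deviations was 0.247, 0.024 and 0.204 for A, B and C of IEC12 against IEC2 and -0.179 to 0.084 in the other comparisons. With the replicate block, 3900, 4569, 4496 and 7505 genes were called in the 4 comparisons in the order above, and HAND1 was called for IEC12 against IEC2 (adjusted p = 0.042). DESeq2 was not run because the values are FPKM. The number of fragments is not known, so the precision of low values such as those of TFAP2C rests on the replicates alone.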
